A study of Mus musculus with 5 samples.

Results

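The granins and the catecholamine synthesis genes were followed through 5 lines of the mouse neuroblastoma cell Neuro2A. The set held 10 genes, of which 6 are granins (Chga, Chgb, Scg2, Scg3, Scg5 and Vgf) and 4 serve catecholamine synthesis and storage (Th, Ddc, Dbh and Slc18a2). All 10 were found among 18193 genes with a symbol of their own. Their probe sets annotated with exactly that 1 symbol were taken, which gave 13 of the 45037 probe sets that are not array controls. The knockdown arm held 2 stable lines, KDM7 KD1 and KDM7 KD2, each transfected with a different vector against KDM7, the histone demethylase encoded by Kdm7a. The control arm held 3 lines, namely the parental cells with no vector, a line with an empty vector and a line with a vector against EGFP. All lines derive from Neuro2A, and each was measured on 1 Affymetrix array. The labels do not say whether a line is 1 clone, and nothing says that the lines were grown as separate cultures side by side, so the spread within an arm is that between lines and arrays. The study addressed how KDM7 bears on gene expression. All changes are knockdown minus control on the log2 scale, with standard errors (SE) from limma.

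Granins are acidic proteins of the dense-core vesicle, the organelle in which neuroendocrine cells store peptides and amines for regulated release. They help to form the vesicle core, and several are cut at pairs of basic residues into secreted peptides. In sympathetic neurons and adrenal chromaffin cells, from whose lineage neuroblastoma arises, these vesicles also hold catecholamines. Tyrosine hydroxylase (Th) makes L-DOPA from tyrosine, aromatic L-amino acid decarboxylase (Ddc) turns this into dopamine, the vesicular monoamine transporter encoded by Slc18a2 loads dopamine into the vesicle, and dopamine beta-hydroxylase (Dbh) makes noradrenaline there. Chromogranin A in blood and the breakdown products of catecholamines in urine are clinical markers of such tumours.

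Promoters of several of these genes are known to hold a cAMP response element (CRE), the site bound by CREB and related factors. They are shown because this element was found in some of these genes and not in others. Promoter windows from RefSeq (build GRCm38.p6), from 250 bases before to 50 bases after the start of transcription, were matched by symbol for 9 of the 10 genes (10 windows, as Ddc has several starts), and Vgf had no entry. The full element TGACGTCA, which reads the same on both strands, was found in 4 of these windows, those of Chgb, Scg2, Th and Slc18a2. It stood in 588 of all 32851 windows of that length, or 1.79%. Letting the 7th base vary (TGACGTNA, both strands, which includes the full element) added Chga, against 2.93% of all windows. The GC box GGGCGG, on either strand, was found in 5 of the 10 windows and in 35.7% of all windows. Below, 32 bases around the element are given 5′ to 3′ on the strand of the gene, with the element in capitals.
Chgb (chr2:132781558-132781589, plus strand): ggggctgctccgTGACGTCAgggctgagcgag
Scg2 (chr1:79440075-79440106, minus strand): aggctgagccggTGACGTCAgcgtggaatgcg
Th (chr7:142900021-142900052, minus strand): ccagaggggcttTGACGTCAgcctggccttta
Slc18a2 (chr19:59260862-59260893, plus strand): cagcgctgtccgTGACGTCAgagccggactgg
Chga (chr12:102554885-102554916, plus strand): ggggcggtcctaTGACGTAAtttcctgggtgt
The element begins 72 bases before the start in Chgb, 68 in Scg2, 45 in Th, 44 in Chga and 4 in Slc18a2. A match of letters is a description of the sequence and not a measured binding site.

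The chromogranin genes Chgb and Chga, which differed in the direction of their values below, are shown with the whole 250 bases before the start, again with the element in capitals.
Chgb (chr2:132781392-132781641, plus strand): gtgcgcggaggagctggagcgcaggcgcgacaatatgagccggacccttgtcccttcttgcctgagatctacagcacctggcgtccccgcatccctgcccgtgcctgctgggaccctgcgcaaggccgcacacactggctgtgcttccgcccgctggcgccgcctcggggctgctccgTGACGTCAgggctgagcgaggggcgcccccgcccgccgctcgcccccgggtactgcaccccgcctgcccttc
Chga (chr12:102554691-102554940, plus strand): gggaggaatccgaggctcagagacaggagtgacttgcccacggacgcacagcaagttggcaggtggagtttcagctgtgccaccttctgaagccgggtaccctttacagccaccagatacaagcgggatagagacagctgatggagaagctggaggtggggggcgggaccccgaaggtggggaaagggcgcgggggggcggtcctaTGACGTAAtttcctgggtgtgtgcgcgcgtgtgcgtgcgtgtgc
Each of these windows held 2 matches to the GC box.

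The 5 arrays had been scaled alike before deposit, with a 2% trimmed mean signal of 500.0 on each, while their median signals ran from 41.3 in the parental line to 49.2 in KDM7 KD1. Kdm7a lay below every control line in both knockdown lines by each of its 3 probe sets. The 1 of these past the threshold, 1456150_at, had a signal of 130 in KDM7 KD1 and 136 in KDM7 KD2, against 487, 611 and 665 in the parental cells, the empty vector line and the EGFP line. The neuronal markers Stmn2, Prph and Tubb3 had signals of at least 6410 in every line by their brightest probe sets, whereas the neurofilament genes Nefl and Nefm were at most 18.2 in every line. Elavl4, an RNA-binding protein of neurons, was the 1 of 8 tested neuronal genes with both knockdown signals under all controls, at 2750 in KDM7 KD1 and 2546 in KDM7 KD2, against 3750, 3028 and 3762 (log2 change -0.40, SE 0.14, and -0.49 and -0.47 by its other probe sets). Mycn had -0.34 (SE 0.20) by its brightest probe set and -0.43 by 1425922_a_at. By 1425923_at it had 0.50 (SE 1.39), with 587 and 687 in the knockdown lines, against 65.3, 991 and 1413, so its probe sets disagree. Neither Elavl4 nor Mycn passed in limma. Summed over the list of 10, the signal was 58073 and 56566 in the knockdown lines, against 56163, 55896 and 62332 in the controls. Among markers of other cells, summed signals over the genes on the array ran from 338 to 493 in knockdown lines against 184 to 406 in control lines for 5 Schwann and glial genes. For 7 fibroblast genes they ran from 140 to 244 against 163 to 230, and for 6 blood and immune genes from 159 to 192 against 130 to 180. Col1a1, Ptprc, Sox10 and Gfap were each under 65 in all lines. The 4 genes of these lists that passed the filter were Erbb3, Csf1r, Pdgfra and Col1a2. Erbb3, which makes up most of the glial sum, had 248 and 391 in the knockdown lines, against 124, 354 and 270 (log2 change 0.45, SE 0.44), and the groups overlapped for all 4. The part of these cells in any result was not tested. In such extracts fewer cells of a type and less RNA per cell cannot be told apart.

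Each granin gene has 1 probe set, and all 6 passed the brightness filter, a mean log2 signal at or above the median of all probe sets, which is a signal of 40.5. Of the 7 catecholamine probe sets 5 passed it, 1 of Ddc, 3 of Dbh and 1 of Slc18a2. The probe set of Th, the gene for the rate-limiting enzyme of the pathway, did not. Across the 11 probe sets tested, limma with Benjamini-Hochberg adjustment over all 22519 tested probe sets called 0 at an adjusted p under 0.05. Over the whole array it called 2, or 0.00888%. The lowest adjusted p of the set was 0.881 (Chgb). At an unadjusted p under 0.05 there were 4 of 11, namely Chga, Chgb, Vgf and Dbh 1447592_at, against 4.96% of all probe sets. In eBayes without trend and robust estimation there was 1 of 11. The genes were chosen with earlier results of these data known, and no single gene reached the threshold, so the values below describe these lines. An exact permutation test of 2 against 3 lines cannot give a two-sided p under 0.1, the value for Chgb.

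Chgb encodes chromogranin B (secretogranin I), a major core protein of the vesicle. It had a signal of 13086 in KDM7 KD1 and 17193 in KDM7 KD2, against 9825 in the parental, 10981 in the empty vector and 9341 in the EGFP line. Both knockdown signals exceeded all 3 control signals, the nearer one by 1.19-fold. The means were 15140 ± 2904 (SD, n = 2) in knockdown and 10049 ± 843 (SD, n = 3) in control lines. The log2 change was 0.58 (SE 0.13, 95% interval 0.29 to 0.87), or 1.50-fold, with an adjusted p of 0.881 in limma. Set against the controls on its own, KDM7 KD1 gave 0.38 and KDM7 KD2 gave 0.78.

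Chga encodes chromogranin A, the founding member of the family and a precursor of peptides such as vasostatin and catestatin. Its signal was 1655 in KDM7 KD1 and 1511 in KDM7 KD2, against 3203 in the parental, 2109 in the empty vector and 1887 in the EGFP line. Both knockdown signals were under all 3 control signals, the nearer one by 1.14-fold. The parental line stood apart from the other controls, 1.61-fold above their mean log2 level. The means were 1583 ± 102 (SD, n = 2) in knockdown and 2399 ± 705 (SD, n = 3) in control lines. The log2 change was -0.56 (SE 0.22, 95% interval -1.07 to -0.060, adjusted p = 0.916 in limma), 1.48-fold lower. Without the parental line it was -0.34, with the knockdown lines still below both remaining controls.

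The opposite values of the chromogranins can be read without any scaling between arrays, since both are measured on the same array. Relative to its mean over the control lines, the log2 ratio of Chgb to Chga was 0.88 in KDM7 KD1 and 1.41 in KDM7 KD2, against -0.48 in the parental, 0.28 in the empty vector and 0.21 in the EGFP line. The knockdown mean was 1.14, or 2.21-fold. This ratio was chosen after the values were seen and was not tested. A ratio shows unequal signals and does not say which of them differed.

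Vgf encodes a neurotrophin-inducible precursor of peptides such as TLQP-21 and is often counted with the granins. It had a signal of 8599 in KDM7 KD1 and 9546 in KDM7 KD2, against 7022 in the parental, 8213 in the empty vector and 6799 in the EGFP line. Here too both knockdown signals exceeded those of the controls, by 1.05-fold at the nearest. The log2 change was 0.31 (SE 0.11, 95% interval 0.056 to 0.56, adjusted p = 0.916 in limma). After median centring the empty vector line stood between the knockdown lines.

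Scg2 encodes secretogranin II, the precursor of secretoneurin. Its signal was 6844 in KDM7 KD1 and 6979 in KDM7 KD2, against 4580 in the parental, 7775 in the empty vector and 4348 in the EGFP line. The knockdown lines were nearly equal and lay within the control range, since the empty vector line was the highest of all 5. The log2 change was 0.36 (SE 0.24, 95% interval -0.20 to 0.92, adjusted p = 0.916 in limma). It was 0.63 without the empty vector line and 0.21 without the EGFP line.

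The remaining granins work with partners in the secretory route, and their signals spanned the least among the granins. Scg3, whose product secretogranin III binds cholesterol-rich membrane and chromogranin A, had a signal of 4772 in KDM7 KD1 and 4479 in KDM7 KD2, against 5362, 4966 and 4727 in the parental cells, the empty vector line and the EGFP line. Its highest line was 1.20-fold above its lowest, and the log2 change was -0.12 (SE 0.11, 95% interval -0.36 to 0.13). Scg5, which encodes the chaperone 7B2 of prohormone convertase 2, had 4945 in KDM7 KD1 and 4768 in KDM7 KD2, against 4396, 4877 and 4575 in the same control lines. Here the span was 1.12-fold and the log2 change 0.074 (SE 0.10, 95% interval -0.16 to 0.31), a sign that turned to -0.035 under median centring. For both genes the groups overlapped.

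**Figure D1:**
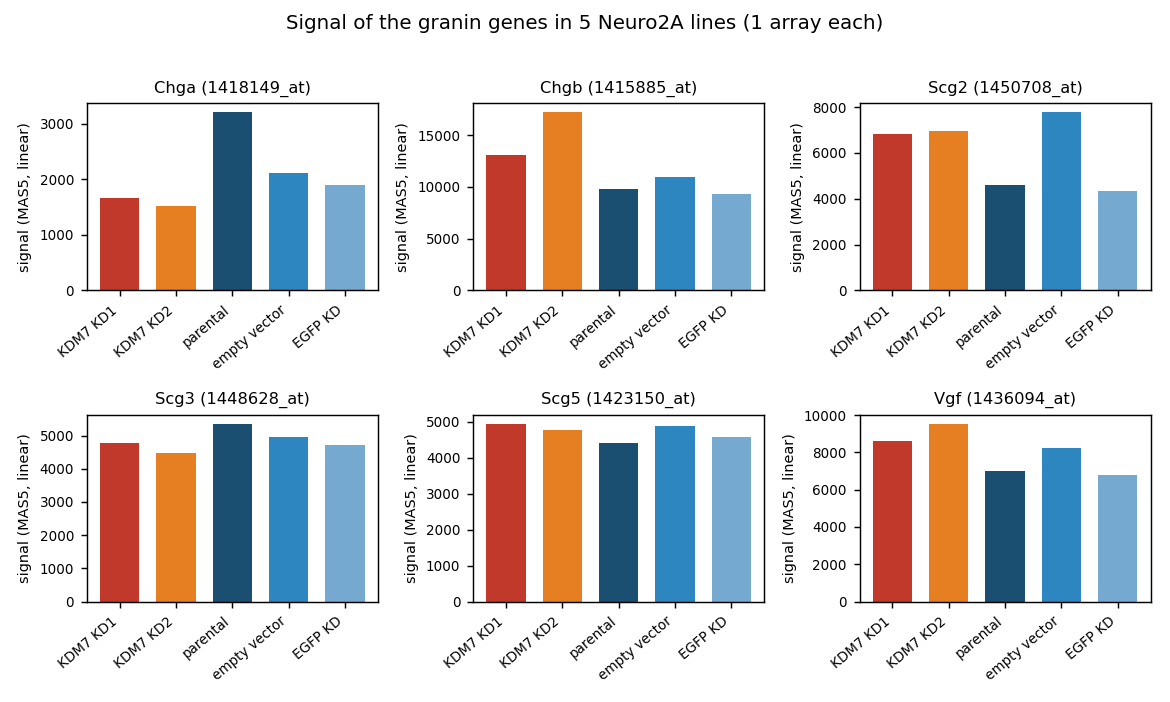
Bars give the deposited signal (linear scale from 0, 1 array per bar) of the 6 granin probe sets in KDM7 KD1, KDM7 KD2 and the 3 control lines (parental cells, empty vector, EGFP). Both knockdown bars exceed every control bar for Chgb and Vgf and fall short of every control bar for Chga, while Scg3 and Scg5 are nearly level and Scg2 is highest in the empty vector line.

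On the catecholamine side, Th was read by 1420546_at, with 24.7 in KDM7 KD1 and 38.1 in KDM7 KD2, against 68.6 in the parental, 28.0 in the empty vector and 22.1 in the EGFP line. The parental line alone exceeded 40.5, and the knockdown lines lay within the control range. Its mean log2 signal was at the 46.9th percentile, so it was not tested. With no brightness filter, an alternative chosen after the data were seen, the log2 change was -0.18 (SE 0.63).

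Ddc 1426215_at had a signal of 1152 in KDM7 KD1 and 985 in KDM7 KD2, against 1204 in the parental, 1262 in the empty vector and 1992 in the EGFP line. Both knockdown signals were the lowest of the 5, the nearer one by 1.04-fold, and the EGFP line stood well above the rest. The log2 change was -0.44 (SE 0.23, 95% interval -0.96 to 0.08, adjusted p = 0.916 in limma), and -0.21 without the EGFP line. The other Ddc probe set, 1430591_at, was under a signal of 3 in all lines, at 2.96 in KDM7 KD1 and 2.68 in KDM7 KD2, against 1.99, 1.04 and 1.89 in the controls. Its knockdown signals were the higher ones, as for 12.4% of the probe sets under the filter, and no fold is given at this level.

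Slc18a2, which encodes the vesicular monoamine transporter VMAT2, had a signal of 1752 in KDM7 KD1 and 1833 in KDM7 KD2, against 1674 in the parental, 2081 in the empty vector and 1228 in the EGFP line. The knockdown lines lay inside the control range. The log2 change was 0.14 (SE 0.21, 95% interval -0.34 to 0.63, adjusted p = 0.944 in limma), with -0.059 without the EGFP line.

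Dbh was read by 3 probe sets of low to moderate signal. Probe set 1459848_x_at had 290 in KDM7 KD1 and 319 in KDM7 KD2, against 497, 359 and 317 in the parental cells, the empty vector line and the EGFP line. Probe set 1450670_at had 68.6 and 100.3 in the same knockdown lines, against 194, 59.0 and 58.2 in the controls. In these the knockdown lines overlapped the controls, and the parental line was the highest. The log2 changes were -0.33 (SE 0.23) and -0.074 (SE 0.54), with -0.15 and 0.50 without the parental line. The suffix _x_at marks probe sets that may also bind other transcripts.

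The remaining Dbh probe set, 1447592_at, separated the knockdown lines. It had a signal of 10.6 in KDM7 KD1 and 62.6 in KDM7 KD2, against 97.2, 60.5 and 87.1 in the parental cells, the empty vector line and the EGFP line. Only KDM7 KD1 lay below the control range, and its signal was under 40.5, where no value was shown to be above background. The log2 change over both lines was -1.64 (SE 0.69, adjusted p = 0.916 in limma), and -0.35 without KDM7 KD1. After adding 32 to every signal it was -0.83. The other probe sets of Dbh did not show the same low value in KDM7 KD1, so the probe sets of this gene disagree.

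**Figure D2:**
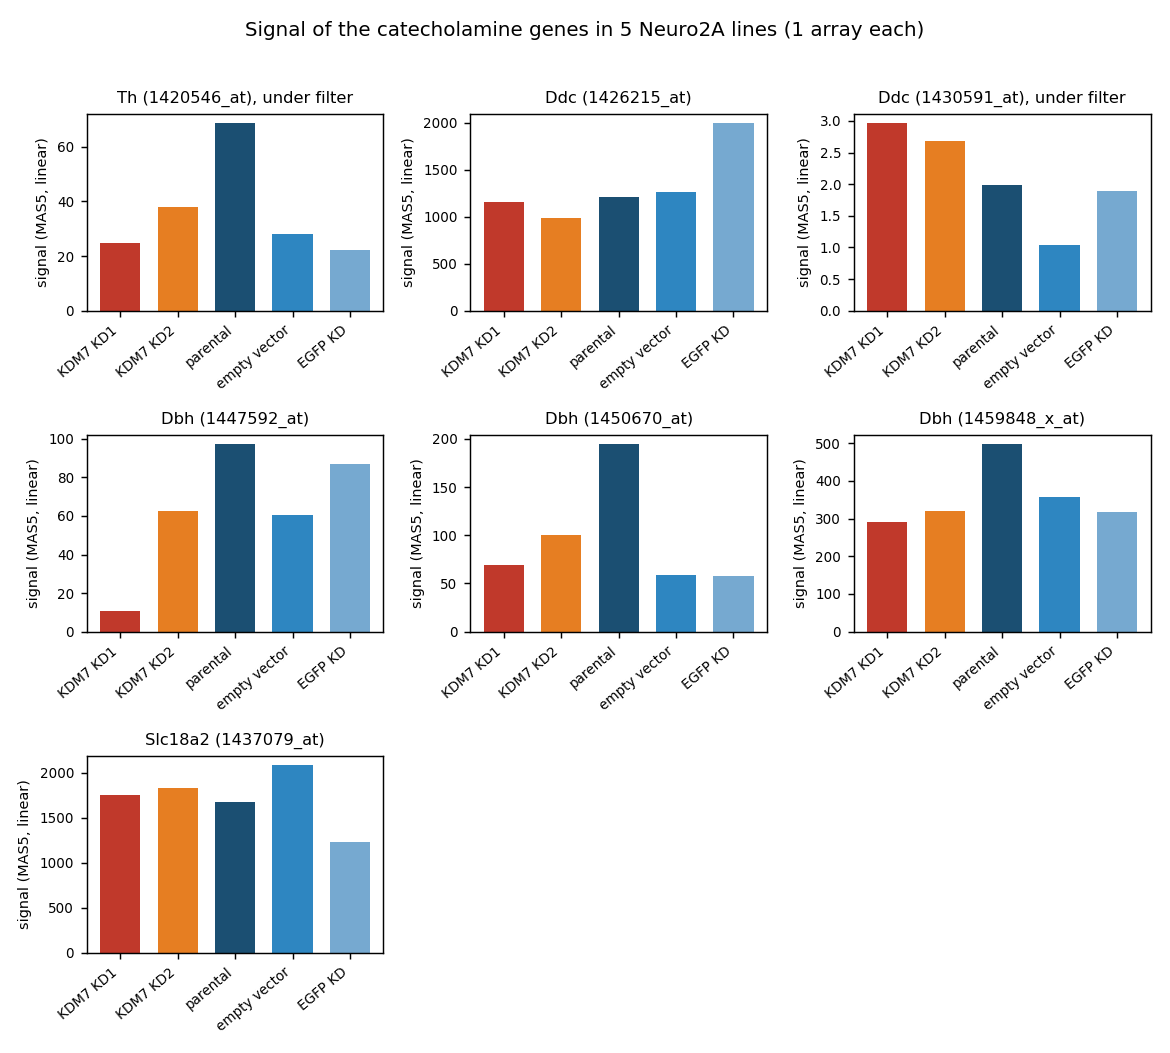
Bars give the deposited signal (linear scale from 0, 1 array per bar) of the 7 probe sets of Th, Ddc, Dbh and Slc18a2 in the same 5 lines. Th and all 3 Dbh probe sets are highest in the parental line, Ddc 1426215_at is highest in the EGFP line, and for Dbh 1447592_at KDM7 KD1 stands far below the other lines.

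Counted together, the groups did not overlap for 4 of 11 tested probe sets, against 22.8% of all tested ones. The knockdown signals were the higher ones for 2 of 11 (Chgb and Vgf, 18.2%), against 12.6% of all, and the lower ones for 2 of 11 (Chga and Ddc), against 10.2%. On so few probe sets these shares are near the background. The highest line was at least 2-fold above the lowest for 4 of 11 (Chga, Ddc, Dbh 1447592_at and Dbh 1450670_at), against 21.2% of all. The 5 probe sets with a higher mean log2 signal in the knockdown lines were Chgb, Scg2, Scg5, Vgf and Slc18a2, and the 6 with a lower one were Chga, Scg3, Ddc and those of Dbh. No member lay at least 2-fold beyond every control line in both knockdown lines, as 0.111% of all probe sets did. Median centring, which moved every log2 change by -0.11, left Chgb as the 1 member above the controls. Those below became 4 in each scaling, with Scg3 and Dbh 1447592_at added under median centring, and Dbh 1447592_at and Dbh 1459848_x_at added by quantile and by cyclic loess scaling.

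**Figure D3:**
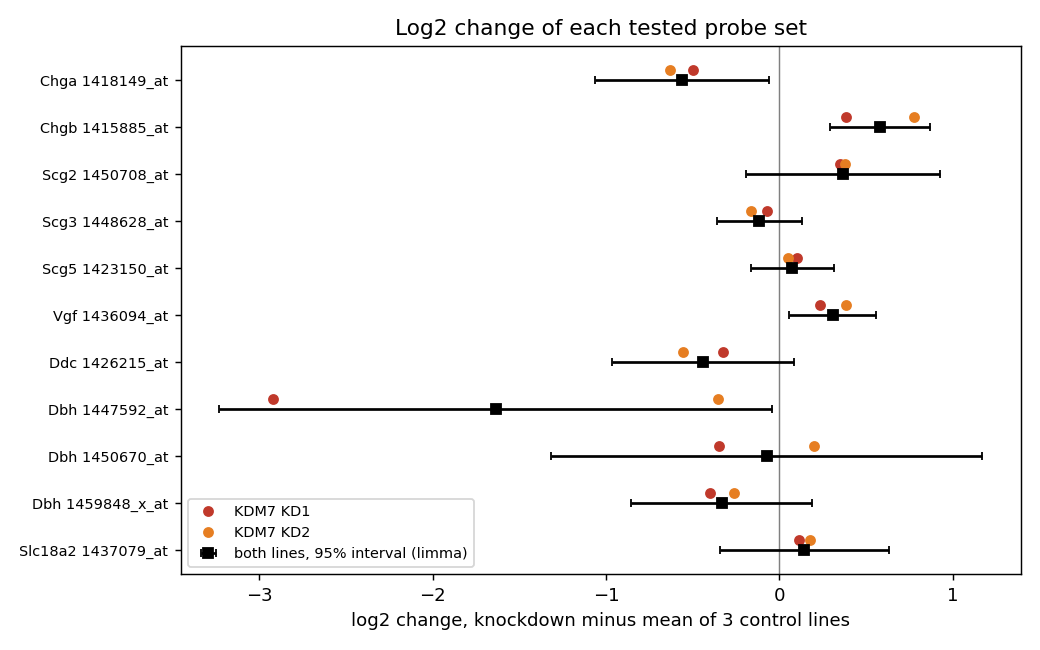
Squares give the log2 change of both knockdown lines against the 3 control lines for the 11 tested probe sets, with 95% intervals from limma, and circles give KDM7 KD1 and KDM7 KD2 on their own against the controls. The intervals of Chgb (0.29 to 0.87) and Vgf (0.056 to 0.56) lie above 0 and those of Chga (-1.07 to -0.060) and Dbh 1447592_at (-3.23 to -0.043) below it, before any adjustment for the 22519 probe sets tested.

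For several genes the range of the control lines was at least as wide as the change between the arms. A range of 3 single lines and a difference of means are unlike measures. The highest control was 1.79-fold above the lowest for Scg2, 1.70-fold for Chga, 1.69-fold for Slc18a2 and 1.65-fold for Ddc, against 1.18-fold for Chgb and 1.21-fold for Vgf. Among the Dbh probe sets it was 3.34-fold for 1450670_at, the widest of the tested members, 1.61-fold for 1447592_at and 1.57-fold for 1459848_x_at. The parental line was the highest of all 5 for 5 of 11 tested probe sets (Chga, Scg3 and the 3 of Dbh), against 23.0% of all tested probe sets, and it was also the highest for Th. KDM7 KD2 was the highest for 2 of 11 (Chgb and Vgf), against 18.7% of all, and the EGFP line was the lowest for 5 of 11, against 18.7% of all. A further pattern, noticed in these values and not tested, was an order shared by other members. For Chgb, Scg2, Vgf and Slc18a2 the EGFP line was the lowest and the parental line next, which was so for 4 of 11 members and for 5.97% of all tested probe sets. Chgb and Vgf had the same full order, KDM7 KD2, KDM7 KD1, empty vector, parental and EGFP from high to low (1.09% of all). Scg2 and Slc18a2 had the empty vector line first and the other lines in that same order (1.15% of all). Chga ran parental, empty vector, EGFP, KDM7 KD1 and KDM7 KD2 (1.01% of all). These points share the same 5 arrays. The orders of Chgb and Scg2 were kept in all 3 other scalings, while Slc18a2 and Vgf changed order under median centring. Chgb, Scg2 and Slc18a2 are also those of the tested genes with the full CRE shown above. Th, which holds the full element too but was not tested, had a different order. It ran parental, KDM7 KD2, empty vector, KDM7 KD1 and EGFP from high to low. Vgf, which shared the order of Chgb, had no promoter window, so whether it holds the element was not seen. Chga, with the variant element, had a different order. Any relation of the element to these orders was not tested.

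KDM7 KD2 was set against KDM7 KD1 with the spread taken from the controls, since each is 1 array, so the differences below are values of these arrays. Here 0 of 11 probe sets passed in limma, against 0.00444% of all. Chgb was 1.31-fold higher in KDM7 KD2 (log2 difference 0.39, SE 0.17, adjusted p = 1.00 in limma). Dbh 1447592_at was higher in KDM7 KD2 (log2 difference 2.57, SE 0.66), or 1.15 on the log2 scale with the offset of 32. This difference rests on the KDM7 KD1 signal of 10.6, which is under 40.5 and was not shown to be above background, so no fold is given. Dbh 1450670_at had a difference of 0.55 (SE 0.89) and Ddc 1426215_at one of -0.23 (SE 0.39). The other 7 tested probe sets differed between the knockdown lines by at most 0.15 on the log2 scale.
For each knockdown line against the controls, limma called 0 of 11, against 0 of all 22519 probe sets for KDM7 KD1 and 0.00444% for KDM7 KD2. The lowest adjusted p in the set was 0.546, for Chgb in KDM7 KD2.

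Genes that process the granins or build the vesicle were followed by their brightest tested probe set, and limma called 0 of 18 in this list. Its median log2 change was 0.17, against 0.028 over 10867 genes. The knockdown signals were the higher ones for 3 of 18 (12.7% of all genes) and the lower ones for 1 (10.2%). The largest changes were in Cyb561, which encodes the vesicle cytochrome that supplies reducing power to Dbh (0.65, SE 0.26), Cpe, a carboxypeptidase that trims processed peptides and is also a partner of Scg3 (-0.58, SE 0.24), and Rab27b, a vesicle GTPase (0.53, SE 0.36). Cyb561 had a signal of 830 and 1208 in KDM7 KD1 and KDM7 KD2, against 467, 739 and 756 in the parental cells, the empty vector line and the EGFP line. Cpe had 3216 and 4582, against 7048, 6373 and 4230, so KDM7 KD2 lay within the control range. Pcsk2, whose enzyme is the client of 7B2, had no probe set with that symbol alone and was not analysed here.

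Tetrahydrobiopterin is the cofactor of tyrosine hydroxylase, and all 6 genes of its supply were measured. None passed in limma, and the median log2 change was 0.13. Gch1, the entry enzyme of its synthesis, was bright in all lines, at 7445 and 9156 in KDM7 KD1 and KDM7 KD2, against 6538, 7186 and 7234 in the control lines. Its log2 change was 0.24 (SE 0.11), and 0.22 by another probe set. Gchfr, which encodes the feedback regulator of Gch1, had 0.75 (SE 0.43), Pts, the next enzyme, -0.47 (SE 0.36), and Spr, the last one, -0.41 (SE 0.17). For Spr the knockdown signals were the lower ones, at 435 and 491 against 661, 575 and 616.

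Of the amine transport and breakdown list, 4 of 10 genes could be tested and none passed in limma (median log2 change -0.032). Slc6a2, the noradrenaline transporter, had 0.25 (SE 0.25), Slc18a1, the vesicular transporter VMAT1 of chromaffin cells, -0.12 (SE 0.42), and Pnmt, which makes adrenaline, -0.11 (SE 0.46). All were dim, with signals from 34.7 to 165. Of the genes for other transmitters 3 of 12 were tested and none passed. Tph1, a tryptophan hydroxylase of serotonin synthesis, had a signal of 272 and 410 in KDM7 KD1 and KDM7 KD2, against 446, 782 and 426 in the control lines (log2 change -0.66, SE 0.30). Tph2 had -0.033 (SE 0.22) and Ache, which breaks down acetylcholine, 0.18 (SE 0.38).

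Peptides that these vesicles may carry were mostly dim, with 5 of 16 genes tested and none past the threshold in limma (median log2 change -0.090). Pomc had a signal of 260 and 256 in KDM7 KD1 and KDM7 KD2, against 586, 395 and 354 in the parental cells, the empty vector line and the EGFP line. The knockdown signals were the lower ones, with a log2 change of -0.75 (SE 0.24), and -0.41 by another probe set. Vip had -1.42 (SE 0.58), at 30.6 and 24.5 against 86.3, 134 and 33.6. Its knockdown values and that of the EGFP line lay under the brightness level of 40.5. Cartpt, whose peptide is stored with catecholamines in sympathetic cells, had 0.34 (SE 0.22).

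Among factors that act on these promoters, Rest, the repressor of neuronal genes including granins, had a log2 change of -0.54 (SE 0.21) by its brighter probe set, at 199 and 168 in KDM7 KD1 and KDM7 KD2, against 253, 253 and 296 in the control lines. Its other probe set had -0.13. The orphan nuclear receptors Nr4a2 and Nr4a1 had -0.37 (SE 0.24) and 0.36 (SE 0.22). The 5 tested probe sets of Creb1, which encodes a factor that binds the CRE, had log2 changes from -0.45 to -0.032, and the knockdown signals were the lower ones for 1 of them (1452529_a_at). The brightest of them had -0.048. Crem and Atf2 of the same list had 0.14 and -0.025 by their brightest probe sets, and each had probe sets of either sign. None of the 11 genes tested in this list passed in limma. Of 8 sympathoadrenal transcription factors tested none passed either (median log2 change -0.26). Those with the largest changes were Gata3 (-1.68, SE 0.46), Isl1 (-1.62, SE 0.55) and Sox11 (-0.48, SE 0.27). The other tested probe set of Isl1, 1422720_at, had -1.03 (SE 0.44), with overlapping groups, and those of Sox11 ran from -1.06 to -0.37. The knockdown signals were the lower ones for 3 of 8 factors (10.2% of all genes) and the higher ones for 0 (12.7%), a share that was not tested.

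**Figure D4:**
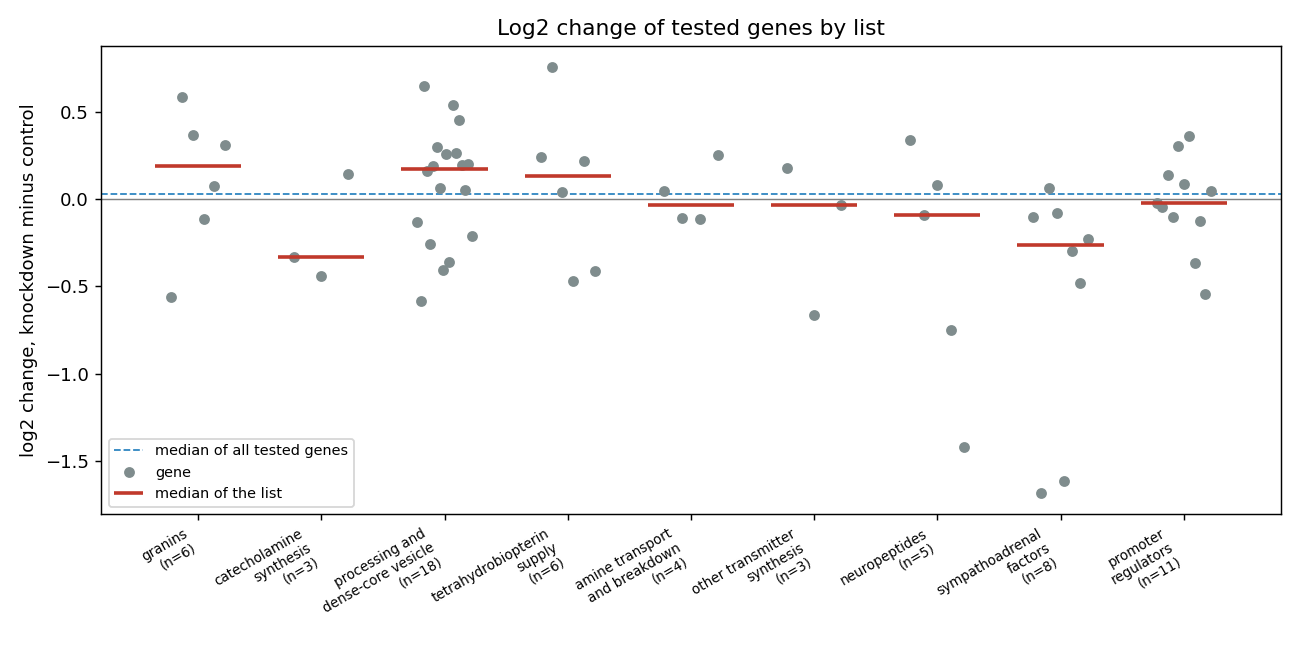
Each point is the log2 change (knockdown minus control) of 1 tested gene by its brightest probe set, grouped by list, with a red bar at the median of the list and a dashed line at the median of all tested genes (0.028). The granin list has its median at 0.19 with Chgb at the top and Chga at the bottom, and no point in any list passed the threshold in limma.

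The genes most like a member were sought by the largest deviation between 2 log2 profiles over the 5 lines, after each was centred on its mean, for members whose brightest probe set spanned over 1 log2 unit. These were Chga and Ddc (2 dimmer probe sets of Dbh also spanned more, but that gene was represented by 1459848_x_at), each compared with 10866 other genes. The closest to Chga were Ccl25, Tcta and Pkdcc, with largest deviations of 0.089, 0.096 and 0.11. Ccl25 had a signal of 471 and 407 in KDM7 KD1 and KDM7 KD2, against 880, 598 and 567 in the parental cells, the empty vector line and the EGFP line. The closest to Ddc were Zfp709, Sbk1 and Rph3al, at 0.12, 0.12 and 0.15. Sbk1 had 1234 and 1174, against 1419, 1462 and 2069 in the same lines. How often other genes have profiles as close over only 5 lines was not tested.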

How the data were processed

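The deposited tables hold signal intensities, not logged, which the authors computed with MAS5 according to the submitters' processing notes, from biotin-labelled cRNA per the labels. The MAS5 version and genome build are not given in the sources used here, and detection calls were not used. Since the 2% trimmed mean was 500.0 on all 5 arrays, they were not rescaled. Of 45101 probe sets, 64 controls were dropped. The log2 of each signal was taken without an offset, and the 22519 probe sets at or above the median mean log2 signal were tested.

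Differences were tested in R 4.3.3 with limma 3.58.1 (lmFit and eBayes, using its trend and robust settings), 2 knockdown against 3 control lines, leaving 3 residual degrees of freedom. The p-values were adjusted by Benjamini-Hochberg across all tested probe sets, with a threshold of 0.05, and measure only the spread between these arrays. Each knockdown line was also fitted as a group of its own, on the assumption that it varies like the controls. The fit was tested on simulated data. Symbols came from the platform annotation, with 1 symbol for 34945 probe sets, several for 932 and none listed for 9160.

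The members and all gene lists were chosen with earlier results of these data known. Every member is named. Of each other pathway list the 3 largest absolute changes by the brightest tested probe set are named, with Kdm7a, Cpe, Gch1, Slc18a1, Pnmt, Rest and Pcsk2 whatever their values. Creb1, Crem, Atf2, the cell type markers named and the other probe sets of Gch1, Pomc, Rest, Isl1 and Sox11 were added after their values were seen. The alternatives were other scalings, filters, an offset, variance models, array weights, a threshold and leaving out each line.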

Additional observations from a re-analysis of the deposited data

How the results depend on the processing

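No tested member probe set passed under any of the 14 alternatives, which held all 11 except that the 70th percentile filter left out Dbh 1447592_at and Dbh 1450670_at, and the lowest adjusted p in limma was 0.265, for Scg2 without the empty vector line. Over the array the 0 higher and 2 lower calls became 1 lower after median centring, 0 lower after cyclic loess and without trend and robust, 1 higher and 5 lower with array weights, 1 higher at an adjusted p under 0.10, and 0 to 1 higher and 0 to 3 lower when single lines were left out (1 higher without the parental line, 1 lower without KDM7 KD1 or the empty vector line, and 0 lower without KDM7 KD2 or the EGFP line). Members with both knockdown lines above every control numbered 1 after median centring, against 2, and those below 4 after quantile normalization, median centring and cyclic loess, against 2. Leaving out 1 control line, an alternative chosen after seeing the data, gave 2 to 5 above and 2 to 4 below, with 5 above without the empty vector line and 4 below without the EGFP line. Signs turned for Scg5 after median centring (-0.035, and 0.014 for KDM7 KD2 minus KDM7 KD1), for Dbh 1450670_at with array weights (0.13), without KDM7 KD1 (0.20) and without the parental line (0.50; -0.37 to 0.50 over the lines left out), and for Slc18a2 without the EGFP line (-0.059; -0.059 to 0.32 over the lines left out). The cause was not tested. The other members kept their direction in every alternative run. No paired analysis was possible because the control labels carry no replicate numbers. The number of arrays limits the precision, and under a signal of 40.5 no value was shown to be above background.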

Other observations

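Some related genes not yet named were picked after their values were seen. Npy, a peptide of sympathetic neurons and among the peptide genes tested (log2 change 0.083, SE 0.85, adjusted p = 0.996 in limma), had a signal of 439 and 398 in KDM7 KD1 and KDM7 KD2, against 1328 in the parental, 202 in the empty vector and 230 in the EGFP line, and thus was highest in the parental line, as Chga, Th and the Dbh probe sets were. Among probe sets under the brightness filter, Chat, which makes acetylcholine, had 43.5 and 43.8 in the knockdown lines, against 1.94, 10.3 and 2.98 in the same order of controls. Pcsk1, prohormone convertase 1, which cuts granins, had 12.9 and 26.4, against 1.29, 2.97 and 2.81. For Chat and Pcsk1, the knockdown signals were the higher ones, as for 12.4% of the 22518 probe sets under the filter. Some other genes of their lists under the filter shared this and others did not. By their brightest probe sets, Gad2 had 34.0 and 43.7, against 22.7, 23.6 and 27.9. Hdc had 9.76 and 5.50, against 3.31, 5.46 and 3.08. Slc17a6 of the same transmitter list was lower in the knockdown lines, with 2.94 and 2.80, against 9.25, 3.56 and 14.2. The groups overlapped for the cholinergic genes Slc18a3 and Slc5a7, and for Cadps and Cadps2 of the vesicle list. Syt9 of the vesicle list went the other way, with 0.96 and 17.4 in the knockdown lines, against 35.7, 21.4 and 31.2. No fold is given, because signals under 40.5 were not shown to be above background, and none of these genes under the filter was tested.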
